A study of Arabidopsis thaliana with 6 samples.

Results

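Mitochondrion-encoded genes of Arabidopsis thaliana were followed in RNA sequencing libraries of whole seedlings. Members are all rows of the deposited gene counts whose locus identifier starts with ATMG, the prefix of genes on the mitochondrial genome. There were 146 such rows among 33602 in all. Of these, 71 had at least 1 count and 75 had 0 counts in every library. The authors' table or the TAIR10.1 annotation of nuclear copies gave a symbol or description for 84 rows (49 and 35 in turn). For many of these the description is only a hypothetical or unknown protein. Among the 146 rows, 38 have a known role, and 28 of those had counts. Another 46 are open reading frames or unclassified, and 62 are not annotated in the sources used here.

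Plant mitochondria keep a small genome that encodes part of the respiratory chain, part of a mitochondrial ribosome, proteins that attach haem to cytochrome c, and ribosomal and transfer RNAs. All other parts of these complexes come from nuclear genes, so complexes I, III and IV and the ATP synthase are built from the products of both genomes. Transcripts of the organelle are spliced, partly from separately transcribed pieces (trans-splicing), edited and trimmed by nuclear-encoded proteins, and poly(A) tails on them are known as a mark for degradation. A large insertion of mitochondrial DNA near the centromere of chromosome 2 of the Columbia accession holds near-identical copies of many of these genes.

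The study compared wild-type Columbia with athb1-1, a mutant allele of ATHB1, which encodes a homeodomain-leucine zipper transcription factor. Each genotype had 3 libraries, labelled biological triplicates, from whole seedlings with root, hypocotyl and cotyledons. Seeds of both groups were stratified for 3 days, and seedlings aged 4 days were collected from short days (light for 8 h, dark for 16 h; 22 to 24 degrees C) when 1 h of night remained. The labels name 1 mutant allele and do not say whether its seeds came from 1 line, nor whether seedlings were pooled.

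Depth, as the sum of gene counts, ran from 11036314 to 11974342 in wild-type and from 12841376 to 13153615 in athb1-1. As a check of the labels, the exon bins of the ATHB1 locus, merged with a neighbour, had a counts-per-million (CPM) level of 405 ± 40.5 in wild-type and of 8.57 ± 0.504 in athb1-1 (SD, n = 3; log2 fold change -5.56, SE 0.12, edgeR quasi-likelihood test with Benjamini-Hochberg adjusted p = 7.36e-11). Seed genes set wild-type replicate 2 apart. The 9 genes for seed storage proteins and oleosins summed to 46.1 CPM there and to 1.01 to 7.25 CPM in the other 5 libraries. None of these 9 markers was at 0 throughout. Root markers (5 genes) summed to 123 to 148 CPM and green tissue markers (5 genes) to 46134 to 56696 CPM. The part of seed carry-over in the mitochondrial values was not tested.

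Mitochondrion-encoded rows held a small and variable share of the gene counts, and that share did not separate the genotypes. It was 0.0660%, 0.0806% and 0.0459% in wild-type replicates 1 to 3. In athb1-1 it was 0.0571%, 0.0689% and 0.0558%. All mutant values lay within the range of the wild-type values, whose highest and lowest libraries were replicates 2 and 3. The means were 0.0642 ± 0.0175% in wild-type and 0.0606 ± 0.00718% in athb1-1 (SD, n = 3), a difference smaller than the wild-type SD. Each share rests on 5492 to 9316 counts. Its 95% Wilson interval, which covers counting error only, was 0.0790 to 0.0823% in the highest library and 0.0447 to 0.0471% in the lowest. The spread between wild-type libraries was therefore far above counting error. In a bulk sample, fewer cells or mitochondria and less RNA in each cannot be told apart.

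Plastid-encoded rows, the other organellar genome, are given beside these values. Their share was 0.280%, 0.321% and 0.163% in wild-type and 0.196%, 0.242% and 0.218% in athb1-1. Wild-type replicate 2 was highest and wild-type replicate 3 lowest for both organelles. Without wild-type replicate 2 the mean mitochondrial share in wild-type was 0.0560%, below the athb1-1 mean. The direction of the small difference in means thus rested on that library. The labels do not say whether libraries were made from polyadenylated RNA, and its part in the organellar shares was not tested.

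**Figure D1:**
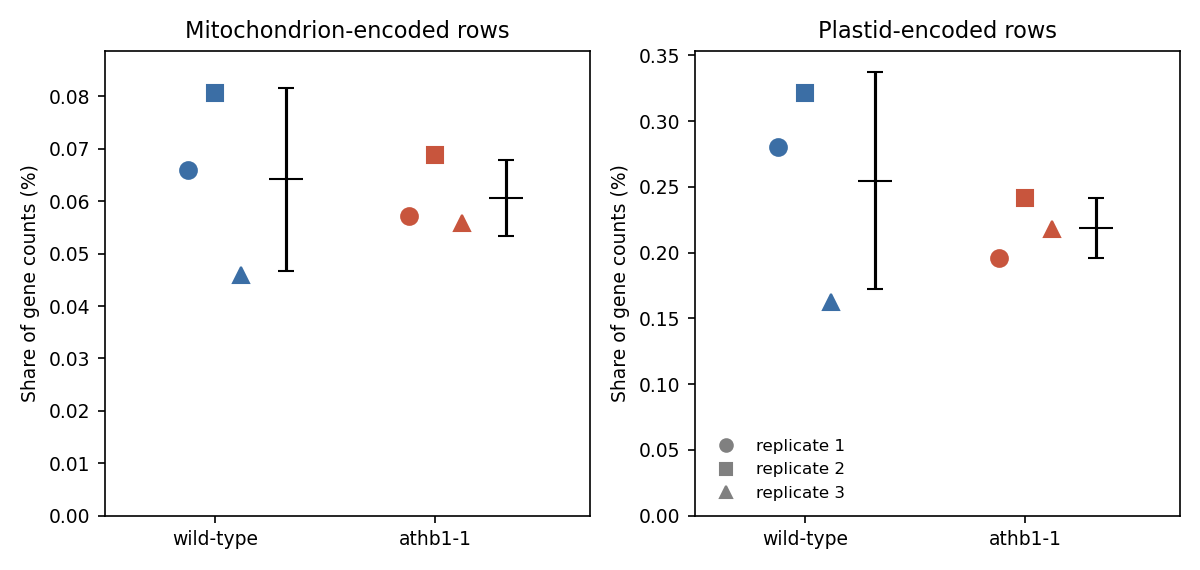
Share of each library's gene counts, in percent, on mitochondrion-encoded rows (left) and on plastid-encoded rows (right). Coloured symbols are libraries, the black line and bars are the mean and SD of 3 libraries, and in both panels the athb1-1 libraries lie within the range of the wild-type libraries.

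Ribosomal RNA made up most of the mitochondrial counts. The 26S, 18S and 5S genes (RRN26, RRN18 and RRN5) held 88.2 to 90.4% of them in every library. RRN18, the RNA of the small ribosomal subunit, was at 349, 353 and 224 normalised CPM in wild-type and at 258, 315 and 230 CPM in athb1-1. All 3 mutant libraries fell between the lowest and the highest wild-type library. RRN26, the large subunit RNA, was at 256, 394 and 180 CPM in wild-type and at 234, 308 and 259 CPM in athb1-1. Again the mutant values lay inside the wild-type range. The fitted log2 fold change was -0.20 (SE 0.18, edgeR adjusted p = 0.971) for RRN18 and -0.05 (SE 0.26, adjusted p = 0.996) for RRN26. Their 95% intervals ran from -0.61 to 0.20 and from -0.67 to 0.57. Without wild-type replicate 2, RRN26 was at 0.29 and RRN18 at -0.10. The lowest values with 1 library left out were -0.28 and -0.39.

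The balance of the large and small ribosomal RNAs varied among libraries as well. RRN26 held 42.3%, 52.7% and 44.6% of the counts of both genes in wild-type and 47.6%, 49.4% and 52.9% in athb1-1. The groups overlapped. RRN5, the small 5S RNA of the large subunit, had 2, 15 and 2 counts in wild-type and 9, 10 and 13 in athb1-1, too few to pass the filter on low counts. Its summed ratio of athb1-1 to wild-type was 1.45 with a counting interval of 0.796 to 2.70. Wild-type replicate 2 held 15 of the 19 wild-type counts, and without it the ratio was 4.65 (1.65 to 18.1). Divided by gene length in TAIR10.1, the mean level over 6 libraries was 148 CPM per kb for RRN18, 85.2 for RRN26 and 5.82 for RRN5.

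Of the 146 members, 16 passed the filter and were tested among 18626 genes, and none was called at an adjusted p under 0.05. Over all genes 10 were called, or 0.0537%, with 4 higher (0.0215%) and 6 lower (0.0322%). DESeq2 also called no member. At an unadjusted p under 0.05, 2 members passed (NAD9 and ORF240A), where 976 of all genes, 5.24%, did. The median log2 fold change of the 16 was -0.22, beside 0.01 over all genes, and 13 were negative and 3 positive. Over all genes 48.3% were negative. Without wild-type replicate 2 the median of the same 16 was 0.03, with 7 negative and 9 positive. Without wild-type replicate 3 it was -0.43, with 14 negative and 2 positive. At an unadjusted p under 0.05, 6 of the 16 passed in that fit (edgeR). The number was 3 without wild-type replicate 1 or 2, and 1 or 2 without an athb1-1 library. None was called in these fits, whose shares over all genes are not given here. For 4 of the 16, the mutant libraries did not overlap the wild-type libraries (2 lower, NAD9 and COX2, and 2 higher, ORF240A and ORF111D). Over all tested genes 11.3% showed no overlap, 5.49% lower and 5.86% higher. These 4 genes had mean levels of 1.09 to 1.53 CPM, and the count is given as a description.

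**Figure D2:**
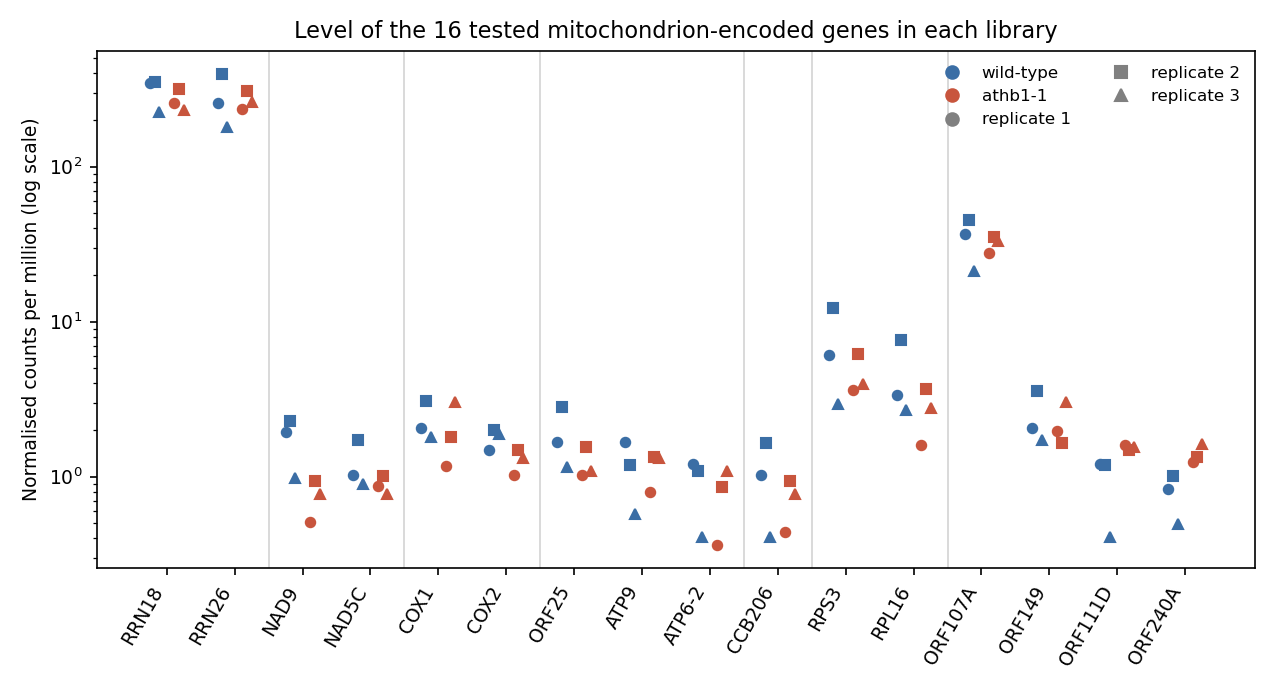
Normalised CPM (log scale, not divided by gene length) of the 16 tested genes, ordered by role, with 1 symbol per library. The ribosomal RNAs lie above 180 CPM in every library, ORF107A between 21.3 and 45.3 CPM, and the other genes at 12.3 CPM or less; only NAD9, COX2, ORF111D and ORF240A show genotypes without overlap.

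Complex I, the NADH dehydrogenase that passes electrons from NADH to ubiquinone, has 11 members annotated in the sources used here, of which 9 had counts. Together they summed to 66, 83 and 43 counts in wild-type and to 53, 61 and 56 in athb1-1. In CPM of all gene counts, the sum was 5.59 ± 1.83 in wild-type and 4.38 ± 0.361 in athb1-1 (SD, n = 3), with overlap. Its ratio of pooled counts was 0.787, with a counting interval of 0.637 to 0.973 that leaves out the spread between libraries. The ratio was 0.923 (0.722 to 1.19) without wild-type replicate 2 and 0.663 (0.529 to 0.832) without wild-type replicate 3.

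NAD9, a subunit of the arm that extends into the matrix, gave the smallest p of all members. Its level was 1.95, 2.27 and 0.983 CPM in wild-type, from 21, 25 and 12 counts. In athb1-1 it was 0.508, 0.937 and 0.773 CPM, from 7, 12 and 10 counts. All mutant libraries were below all wild-type libraries, by a narrow margin for wild-type replicate 3. The log2 fold change was -1.21 (SE 0.38, 95% interval -2.04 to -0.38, unadjusted p = 0.00793), but the edgeR adjusted p was 0.829. With 1 library left out at a time it ranged from -1.51 to -0.97. In the authors' deposited table the gene stood at -1.21, athb1-1 over wild-type with the sign turned, with an adjusted p of 0.381. NAD9 lies 840 bases from RPL16 on the same strand in TAIR10.1, and every stretch of 50 bases in it occurs once in that assembly.

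The trans-spliced subunits were covered thinly. NAD5C, the 3' part of the gene for subunit 5 of the membrane arm, was at 1.02, 1.73 and 0.901 CPM in wild-type and at 0.871, 1.01 and 0.773 CPM in athb1-1. The genotypes overlapped (log2 fold change -0.45, SE 0.35, edgeR adjusted p = 0.967). NAD5A, the 5' part, had 0, 4 and 1 counts in wild-type and 0, 1 and 2 in athb1-1. For subunit 1, the part NAD1B had 2, 5 and 2 counts against 1, 1 and 2 in athb1-1. The part NAD1C had 3, 2 and 0 counts in wild-type and 6, 0 and 7 in athb1-1, and the part nad1A had 0 counts throughout. Parts of the same gene thus differed in counts, and they also differed in how much of their sequence is unique in TAIR10.1. At 50 bases NAD5C was unique over 100% and NAD5A over 3.71% of positions, and NAD1B, NAD1C and nad1A over 80.8%, 17.7% and 0%. None of the parts of subunit 1 could be tested. NAD2B, the 3' part of subunit 2, had 3, 9 and 4 counts in wild-type and 5, 7 and 3 in athb1-1. The other parts of subunits 2 and 5 are not annotated in the sources used here and are not described.

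The remaining complex I genes did not pass the filter on low counts. Their ratio of athb1-1 to wild-type was 1.12 (0.630 to 2.02) for NAD7, of the matrix arm, from 53 counts. For the membrane subunits it was 0.859 (0.501 to 1.48) for NAD4L from 60 counts and 1.89 (0.606 to 6.94) for NAD4 from 16 counts (3.23 without wild-type replicate 1). Each interval covers counting error only and includes no change. The gene nad3 had 0 counts. At the exon-bin level nad3 is merged with its neighbours ORF114 and ATMG01010, and that locus had a log2 fold change of -0.71 (SE 0.36, edgeR adjusted p = 0.949). In exon-bin sums, where 12 of 18764 loci (0.0640%) and no member were called, NAD7 passed the filter, at 0.20 (SE 0.37, adjusted p = 0.976).

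Complex III is represented in the mitochondrial genome by cob, which encodes apocytochrome b. It had 0 counts in every library. Every stretch of 50 bases in it also occurs on chromosome 2, where its copy AT2G07727 held 66 counts, so the 0 sets no upper limit on cob RNA.

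Complex IV, cytochrome c oxidase, passes the electrons to oxygen, and its 3 mitochondrial genes COX1, COX2 and COX3 encode the catalytic core. COX1, with the haem and copper centre, was at 2.04, 3.09 and 1.80 CPM in wild-type and at 1.16, 1.80 and 3.02 CPM in athb1-1. The mutant libraries included both the lowest value and nearly the highest. Its log2 fold change was -0.22 (SE 0.34, edgeR adjusted p = 0.974). COX2, which takes electrons from cytochrome c, was at 1.49, 2.00 and 1.88 CPM in wild-type and at 1.02, 1.48 and 1.32 CPM in athb1-1. All mutant values were below all wild-type values, though the lowest wild-type and the highest mutant library were nearly level.

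The COX2 log2 fold change was -0.50 (SE 0.27, 95% interval -1.09 to 0.10, unadjusted p = 0.0926, edgeR adjusted p = 0.947). COX3, a structural core subunit, was too low to test, at a ratio of 1.02 (0.550 to 1.92) from 46 counts. Summed over the 3 genes, complex IV was at 4.63 ± 0.871 CPM in wild-type and 3.94 ± 0.926 in athb1-1 (SD, n = 3), with overlap.

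The ATP synthase, which uses the proton gradient to make ATP, had 6 annotated members and 5 with counts. ORF25, also known as atp4, encodes a subunit of the stalk that joins the membrane and matrix parts of the enzyme. It was at 1.67, 2.82 and 1.15 CPM in wild-type and at 1.02, 1.56 and 1.08 CPM in athb1-1. Wild-type replicate 2 was highest, and the groups overlapped through wild-type replicate 3. The log2 fold change was -0.61 (SE 0.35, edgeR adjusted p = 0.947), and -0.21 without wild-type replicate 2. Its lowest value with 1 library left out was -0.88. ATP9, for the ring subunit that carries protons, was at 0.02 (SE 0.39), and ATP6-2, for the proton channel subunit, at -0.22 (SE 0.48). Neither was called (edgeR adjusted p = 0.999 and 0.983).

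ATP6-1, the other copy of the channel gene, had a ratio of 0.752 (0.398 to 1.41) from 45 counts. ATP1, for the catalytic head's alpha subunit, had a ratio of 0.737 (0.205 to 2.56) from 13 counts. The gene atp8 had 0 counts. The pair ATP6-1 and ATP6-2 is near-identical over much of its length, and how reads were split between them depends on a counting step that the labels do not describe. Summed over the group, the ATP synthase genes were at 4.71 ± 1.27 CPM in wild-type and at 3.87 ± 0.862 in athb1-1 (SD, n = 3), with overlap.

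Cytochrome c maturation genes encode the machinery that attaches haem to c-type cytochromes. CCB206, also known as ccmB, was at 1.02, 1.64 and 0.409 CPM in wild-type and at 0.435, 0.937 and 0.773 CPM in athb1-1. The mutant libraries lay within the wild-type range, and the log2 fold change was -0.50 (SE 0.48, edgeR adjusted p = 0.971). CCB382 (ccmFN1) had 5 counts in all and ccmFN2 had 6, too few to compare. The genes ccmC and ccmFC had 0 counts.

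Mitochondrial ribosomal protein genes spread widely among the wild-type libraries. RPS3, a small subunit protein, was at 6.04, 12.3 and 2.95 CPM in wild-type and at 3.63, 6.17 and 3.94 CPM in athb1-1. RPL16, a large subunit protein, was at 3.35, 7.55 and 2.70 CPM in wild-type and at 1.60, 3.67 and 2.78 CPM in athb1-1. In both, wild-type replicate 2 was the highest of the 6 libraries. The other wild-type libraries lay among the mutant ones for RPL16, while for RPS3 wild-type replicate 3 was the lowest of all.

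The log2 fold changes were -0.62 (SE 0.48) for RPS3 and -0.75 (SE 0.43) for RPL16, with edgeR adjusted p of 0.967 and 0.947. Without wild-type replicate 2 they were 0.04 and -0.18. The lowest values with 1 library left out were -1.01 and -1.05. The genes overlap by 134 bases on the same strand in TAIR10.1. In the exon bins of their merged locus, bin 1 equalled the RPL16 gene count in all 6 libraries, and bins 3 and 4 summed to 420 beside 416 gene counts of RPS3. The 76 counts of bin 2 thus appear in neither gene count. RPL2 had 0, 1 and 3 counts in wild-type and 3, 2 and 4 in athb1-1. The genes rpl5, rps4, rps7 and rps12 had 0 counts. Summed over the group, the level was 9.15, 18.96 and 6.01 CPM in wild-type and 5.70, 9.97 and 7.07 CPM in athb1-1. The means were 11.4 ± 6.75 and 7.58 ± 2.18 CPM (SD, n = 3), but without wild-type replicate 2 the wild-type mean was 7.58 CPM, level with the mutant. The ratio of pooled counts was 0.667, with a counting interval of 0.571 to 0.778. It was 1.01 (0.831 to 1.22) without wild-type replicate 2 and 0.534 (0.454 to 0.627) without wild-type replicate 3.

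MATR encodes a maturase, a protein that assists intron splicing, and lies inside an intron of the nad1 gene. It had 1, 1 and 0 counts in wild-type and 3, 1 and 1 in athb1-1. ORFX, also known as mttB, encodes a protein related to bacterial twin-arginine protein export. It had 0, 2 and 0 counts in wild-type and 1, 0 and 2 in athb1-1. At these counts no difference was detectable.

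Among the open reading frames, the 4 tested ones included both members whose mutant libraries all lay above the wild-type ones. ORF240A was at 0.836, 1.00 and 0.491 CPM in wild-type and at 1.23, 1.33 and 1.62 CPM in athb1-1. All mutant libraries were above all wild-type libraries. The log2 fold change was 0.85 (SE 0.34, 95% interval 0.11 to 1.59, unadjusted p = 0.0270), with an edgeR adjusted p of 0.939. ORF111D was at 1.21, 1.18 and 0.409 CPM in wild-type and at 1.60, 1.48 and 1.55 CPM in athb1-1. These groups did not overlap either, with wild-type replicate 3 well below the rest. Its log2 fold change was 0.75 (SE 0.36, 95% interval -0.04 to 1.53), with an edgeR adjusted p of 0.944. ORF111D lies 9 bases from RRN5 and 297 bases from RRN18 on the same strand in TAIR10.1.

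ORF107A had by far the most counts of the open reading frames, 2413 of all mitochondrial counts of 45652. It was at 36.9, 45.3 and 21.3 CPM in wild-type and at 27.7, 35.1 and 33.0 CPM in athb1-1. The mutant values lay inside the wild-type range (log2 fold change -0.11, SE 0.25, edgeR adjusted p = 0.985). This reading frame overlaps RRN26 by 185 bases on the opposite strand. No source used here says whether the counting used strand, so reads of ORF107A and of RRN26 in that stretch cannot be told apart. ORF149 was at 2.04, 3.55 and 1.72 CPM in wild-type and at 1.96, 1.64 and 3.02 CPM in athb1-1, with overlap (log2 fold change -0.14, SE 0.32, adjusted p = 0.985). All 46 open reading frames and unclassified rows together were at 42.1 ± 13.2 CPM in wild-type and 41.4 ± 3.32 in athb1-1 (SD, n = 3).

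**Figure D3:**
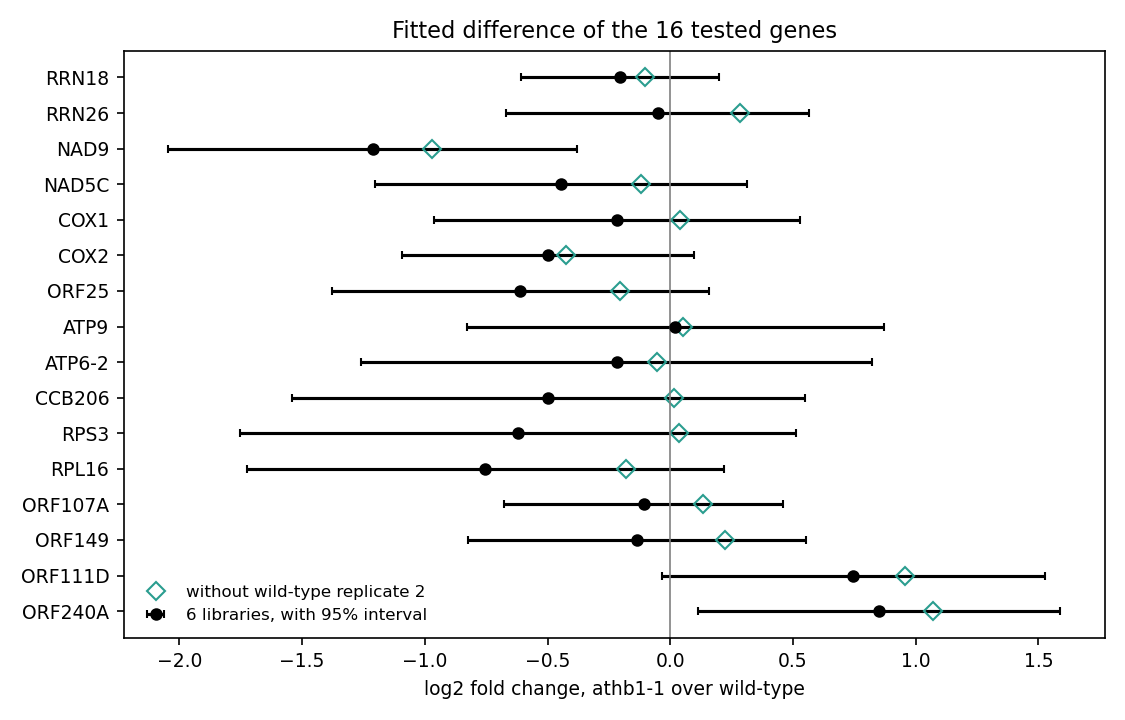
Fitted log2 fold change of athb1-1 over wild-type for the 16 tested genes, ordered by role. Black points and bars are the edgeR estimate with its 95% interval from 6 libraries, open diamonds the estimate without wild-type replicate 2; the intervals of NAD9 and ORF240A leave out 0 before adjustment for the number of genes tested, and 9 of the 16 diamonds lie above 0.

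Exon usage, the share of a locus's reads in each of its exon bins, could be tested for a single member locus, the merged RPS3 and RPL16 locus with 3 bins. Its usage did not differ (diffSpliceDGE in edgeR, Simes p adjusted by Benjamini-Hochberg, 1.000). Over all loci 1 of 12808 was called, or 0.00781%. No other member locus had more than 1 bin past the filter on low counts.

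For all 10 members that had 0 counts and could be placed in TAIR10.1, every stretch of 50 bases also occurs on chromosome 2. The matching largely set this outcome. No row at 0 counts had a name in the authors' table, so it could be placed only through the annotation of a nuclear copy. Of the 75 members at 0 counts, 43 have no nuclear copy named there and were not placed. In TAIR10.1, whose mitochondrial sequence need not be that of the authors' build, 70.5% of mitochondrial stretches of 50 bases also occur in the nuclear chromosomes, 70.4% on chromosome 2, and 28.9% occur once in the assembly. Of the 146 members, 56 could be matched by name to a feature there. Among these, 17 had no unique stretch, and 10 of the 17 had 0 counts. They were cob, nad3, nad1A, atp8, ccmC, ccmFC, rpl5, rps4, rps7 and rps12. Another 12 were unique over less than 50% of their length, with 3 to 53 counts and a median of 7.5. The other 27 were unique over at least 50% and had 4 to 20950 counts with a median of 62.

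The 7 members without a unique stretch that still had counts reached up to 83 counts, the total of ATP9. Stretches of 100 bases gave the same numbers of members in each class. These are descriptions of the counted rows. No source used here says whether reads with several matches were dropped, and its part in the zero counts was not tested. Of the tested members, 15 were matched and 14 of these were unique over at least 50% of their length, ATP9 being the exception.

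**Figure D4:**
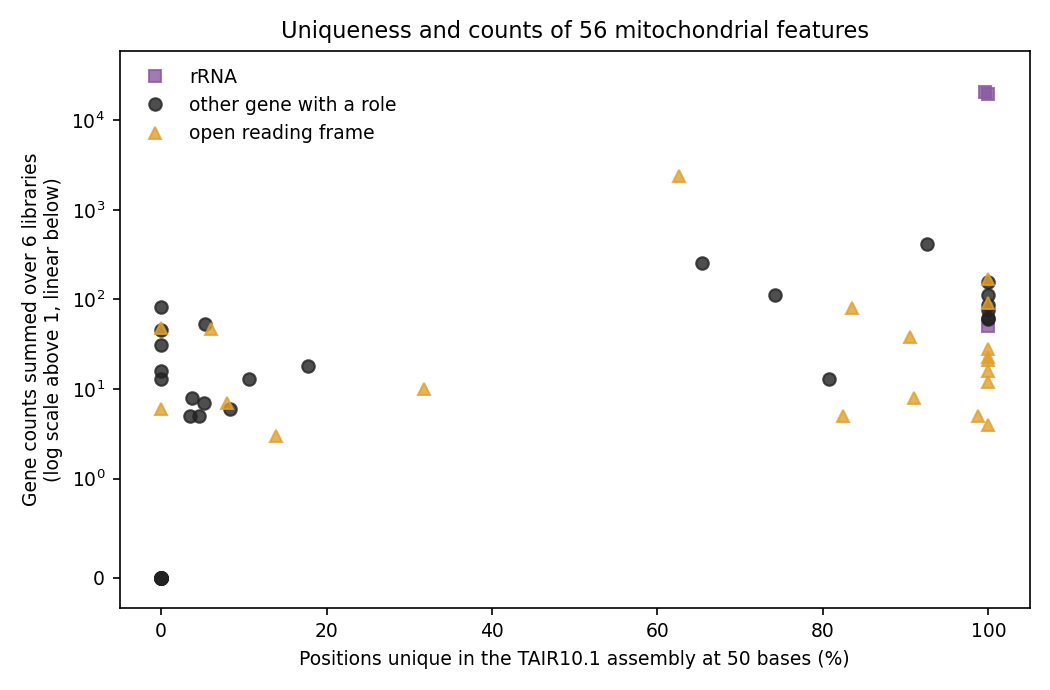
Total gene counts over 6 libraries (log scale above 1, linear below) against the percentage of positions at which 50 bases occur once in TAIR10.1, for the 56 members matched to a feature. The 10 plotted members at 0 counts, of 75 at 0 counts in all, were named only through a nuclear copy and lie at 0% unique positions. The ribosomal RNAs RRN18 and RRN26 lie near 100% with 20950 and 19808 counts.

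Rows on chromosome 2 carried counts for some of the same products. For RPL2 the member had 13 counts and its copy AT2G07715 had 121. For ATP1 the member had 13 and the copy AT2G07698 had 57. For COX3 the order was the other way, with 46 counts on the member and 16 on AT2G07687, and for ATP9 the copy had 0. The copies of rpl5 and rps4 held 26 and 24 counts. Where sequences match, transcripts of the organelle and of the nuclear copy cannot be told apart by these counts.

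Over the 55 chromosome 2 rows whose annotation names a member, counts summed to 120, 161 and 84 in wild-type and to 114, 127 and 146 in athb1-1. The groups overlapped. Of the wider set of 141 rows with identifiers in the insertion's range, which also holds nuclear genes, 13 were tested and none was called (edgeR, 0 at an unadjusted p under 0.05). Their median log2 fold change was -0.04, with 0.11 without wild-type replicate 2 and -0.24 without wild-type replicate 3. Among them, the copies of cob, ATP1 and RPL2 stood at -0.39 (SE 0.60), -0.47 (SE 0.47) and 0.18 (SE 0.37).

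None of the tested nuclear genes that work with the mitochondrial ones was called. Of 36 nuclear subunits of the respiratory complexes, all were tested, none was called, and 18 were positive and 18 negative, with a median log2 fold change of 0.00. Without wild-type replicate 2, 34 were positive and 2 negative, with a median of 0.13, 8 at an unadjusted p under 0.05 and none called (edgeR). That fit called more genes over the whole table than the fit of all libraries. Its shares over all genes are not given here, so these counts describe the list only. Without wild-type replicate 1, 8 were positive and 28 negative, with a median of -0.06. The smallest p belonged to SDH1-1, a succinate dehydrogenase subunit, at 0.16 (SE 0.09), and AT3G62400, listed with the cytochrome oxidase subunits, at 0.21 (SE 0.13). Their edgeR adjusted p was 0.947 for both.

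Of 20 nuclear genes for mitochondrial transcription and RNA processing, 19 were tested and none was called, with 9 positive, 10 negative and a median of -0.02. LOI1, an RNA editing factor with pentatricopeptide repeats, had 1.39, 1.46 and 1.64 CPM in wild-type and 2.03, 2.97 and 2.24 CPM in athb1-1, without overlap. The list held 4 genes without overlap, 2 lower and 2 higher, beside 11.3% of all tested genes. The log2 fold change of LOI1 was 0.68 (SE 0.25), and that of AT4G31010, of the family of intron splicing factors, was -0.30 (SE 0.12). The edgeR adjusted p was 0.939 for both.

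Of 13 genes for alternative respiration and mitochondrial stress, 9 were tested and none was called, 7 positive and 2 negative with a median of 0.07. AT2G21640, a gene induced by mitochondrial stress, was at 0.47 (SE 0.28), and NDB2, an alternative NADH dehydrogenase, at 0.19 (SE 0.13), with edgeR adjusted p of 0.947 and 0.951. At an unadjusted p under 0.05, 3 of the 19 tested RNA processing genes passed (15.8%, beside 5.24% of all genes), and 0 of each of the other 2 nuclear lists. For RNA processing the count was 0 without wild-type replicate 1 or without athb1-1 replicate 2, and 4 without wild-type replicate 2. Of the plastid-encoded rows, 80 were tested and none was called (8 at an unadjusted p under 0.05). Their median log2 fold change was -0.36, with 71 negative and 9 positive. It was -0.10 without wild-type replicate 2, with 49 negative and 31 positive. Without wild-type replicate 3 it was -0.64, with 78 negative and 2 positive, 58 at an unadjusted p under 0.05 and 2 called (edgeR). Shares over all genes are not given here for fits with 1 library left out. The counts from such fits, those for RNA processing included, therefore describe the lists only.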

How the data were processed

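Gene and exon-bin files hold raw read counts, as deposited by the authors. The submitters' processing notes name the build TAIR10 and the aligners Bowtie2 2.1.0 and TopHat2 2.0.8. How reads were counted (program, strand, reads with several matches) is stated in none of the sources used here. The authors' deposited table gives log2 fold changes, positive for wild-type, and p-values, and 6 columns of per-library signal in it were not used.

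Members, roles and gene lists were chosen with earlier results of these data known. All 6 libraries were tested over the whole table with edgeR 4.0.16 in R 4.3.3 (TMM, filterByExpr with a minimum count of 10, robust quasi-likelihood F-test, genotype only, Benjamini-Hochberg adjusted p under 0.05). Alternatives were DESeq2 1.42.0, RLE scaling, no filter, exon-bin sums, nuclear library sizes, a replicate block and leaving out each library, for ratios and list medians a choice made after seeing the data. Ratios divide pooled counts by library totals (TMM-scaled for single genes), with exact 95% intervals that cover counting error only. CPM of single genes are TMM-scaled, and those of role groups and markers are not. The share of mitochondrial counts is a sum over the members, so no p is given for it, and 3 against 3 libraries cannot go below p = 0.1 in the planned exact permutation test. Libraries of 1 genotype differed beyond sampling noise (chi-square per degree of freedom 4.28 to 12.6 over all genes). The fits were tested on simulated counts. Nothing but the label says that replicates came from separate plantings, so p-values measure the spread between these samples.

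Named in full were, by rule, the member of each role with the highest CPM and with the smallest p, the tested open reading frames, and all annotated parts of trans-spliced genes. In each nuclear list the 2 tested genes with the smallest p were named.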

Additional observations from a re-analysis of the deposited data

How the results depend on the processing

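No mitochondrion-encoded gene was called under any alternative run, and none was called for exon usage. Without a filter on low counts, 71 members were tested. All 16 members tested by edgeR with the filter had an adjusted p in DESeq2, and how many others had one was not counted. Over all genes, 19 were called without the filter, 22 by DESeq2, and 8 to 165 with 1 library left out, the 165 without wild-type replicate 2. The median log2 fold change of the members was -0.22 with a replicate block, where 12 genes of the whole table and no member were called. Deviations from the group means correlated at r of -0.05, 0.21 and 0.11 for same-numbered libraries, and at -0.21 to 0.16 for differently numbered ones. With 3 libraries per genotype, deviations from a group mean are tied to each other, so this cannot decide whether the numbers pair the samples. The difference in share was -0.00356 percentage points. A replicate block cannot change a difference of means between groups of equal size, so it was no check of that value. Leaving out 1 library moved that difference between -0.0127 and 0.00467. The median then ran from -0.40 to 0.04 over the members tested in each fit, and from -0.48 to 0.03 over the same 16. Each of these was above 0 only without wild-type replicate 2. Of 190 alternative values of single members, 15 changed sign, in 8 members, and the lowest adjusted p among them was 0.241. RRN26 stood at 0.0093 with the replicate block. With 1 library left out, RRN26 ranged from -0.28 to 0.29, ATP6-2 from -0.59 to 0.13, ORF107A from -0.37 to 0.13, RPS3 from -1.01 to 0.037, CCB206 from -0.90 to 0.014, ORF149 from -0.42 to 0.22, COX1 from -0.64 to 0.064 and ATP9 from -0.32 to 0.39. The cause was not tested. Few counts limit these results, with 1 to 19 counts in all for 43 members and none for 75, and the part of depth in this was not tested. Ratios of members with fewer than 20 counts could move by over 1.5 times with 1 library left out, as for NAD5A, from 0.256 to 1.74. Some with more counts moved as far. Without wild-type replicate 2, RRN5 (51 counts) moved 3.21 times, NAD2B (31 counts) 1.55 times and the ribosomal protein sum 1.51 times.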
